A study of Mus musculus with 9 samples.

Results

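The distal convoluted tubule (DCT) is the short nephron segment that reabsorbs sodium chloride through the thiazide-sensitive cotransporter Slc12a3. DCT nuclei were picked here from single-nucleus RNA counts of mouse kidney by 5 genes. A nucleus had to hold at least 2 unique molecular identifiers (UMIs, counted RNA molecules) of Slc12a3 and more UMIs of Slc12a3 than of Slc12a1, the cotransporter of the neighbouring thick ascending limb (TAL). Its Slc12a3 count also had to reach the summed count of Scnn1b, Scnn1g and Aqp2, genes of the connecting tubule and principal cells. The rule found 490 of 27738 nuclei, 1.77% of all. Levels of the 5 rule genes therefore describe the choice and were not tested.

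Sodium chloride uptake by DCT cells is set by the kinases Wnk1 and Wnk4, which act through the kinase Stk39 (SPAK), while Klhl3 with Cul3 marks the WNK kinases for degradation. The segment also takes up magnesium through the channel Trpm6, under the influence of the hormone Egf, and its later part moves calcium with Calb1 and the sodium-calcium exchanger Slc8a1. In rodents the early and the late DCT differ in this calcium equipment.

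The study followed kidney tubule cells after ischemia-reperfusion injury (IRI, clamping of both renal pedicles for 18 min). Injured libraries were made 7 days (2 libraries) and 28 days (3 libraries) after IRI from Krt20T2A-CE; INTACTnuGFP/+ mice given tamoxifen at 0.05 mg/g, in which a Cre driven from Krt20, a keratin gene switched on in injured tubules, labels nuclei with GFP. Controls were Six2TGC; Rosa26rtTA; pTRE-H2BeGFP mice on doxycycline food at 625 mg/kg, in which Six2, a gene of nephron progenitors, drives GFP in the whole nephron lineage (3 sham-operated mice and 1 without surgery, which is control replicate 1). All mice were males of 11 to 19 weeks at operation, and GFP-positive nuclei were sorted in every group. Injury, mouse line, drug and sort thus differ together between either IRI group and the controls and cannot be told apart, whereas the day 28 and day 7 groups share line, drug and sort. Serum creatinine 48 h after IRI was 0.255 and 0.133 mg/dL in the day 7 mice and 0.488, 0.208 and 0.228 mg/dL in the day 28 mice.

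DCT nuclei numbered 72 and 64 in the day 7 libraries, 70, 42 and 29 in the day 28 libraries, and 99, 41, 48 and 25 in the control libraries. They held 1404837 UMIs in all, from 23491 in control replicate 4 to 290519 in day 7 replicate 1, so control replicate 4 gave the least precise values. The median DCT nucleus held 2334 and 2116.5 UMIs at day 7, 1019, 2586.5 and 3918 at day 28, and 1804, 2330, 2925.5 and 803 in controls. Malat1, a nuclear RNA, took 11.5% and 7.81% of the UMIs of DCT nuclei at day 7, 17.4% to 18.8% at day 28 and 21.2% to 27.8% in controls. Its share in all other nuclei of the same libraries was close to these values (6.73% to 10.3%, 16.0% to 17.7% and 19.8% to 24.0%). Cell barcodes fell into 2 sets, one held by the 4 controls and day 28 replicate 1 and the other by the remaining 4 libraries. The protocol labels name versions 2 and 3 of the 10x kit without saying which library used which. Of all barcodes, 132 occurred in more than 1 library, and 1 DCT nucleus carried one of them.

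Slc12a3 itself, on chromosome 8 (GRCm38, 94329201 to 94366214, plus strand), had a median of 15 and 14 UMIs per DCT nucleus at day 7, 17.5, 43.5 and 55 at day 28, and 20, 21, 21.5 and 13 in controls. Near the threshold, 30 nuclei entered with 2 UMIs and 13 with 3, and 529 nuclei with 1 UMI met the other conditions and stayed outside. Nuclei with fewer than 8 Slc12a3 UMIs made up 37.5% and 35.9% of the DCT nuclei at day 7, 9.52% to 17.2% at day 28 and 9.09% to 12% in controls. Both day 7 libraries therefore had more nuclei close to the threshold than any other library. The 43 nuclei with 2 or 3 UMIs carried less of the other DCT genes as well: they held Slc8a1 at 1369, 851 and 175 UMIs per 1000000 (CPM) when summed over day 7, day 28 and control, against 7776, 11504 and 16040 CPM in the 401 nuclei with 8 or more. The 46 nuclei with 4 to 7 UMIs (28 at day 7, 8 at day 28 and 10 in controls) held 3088, 1630 and 43052 CPM. Just outside the threshold, Slc8a1 was at 70.9, 58.9 and 97.0 CPM.

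**Figure D1:**
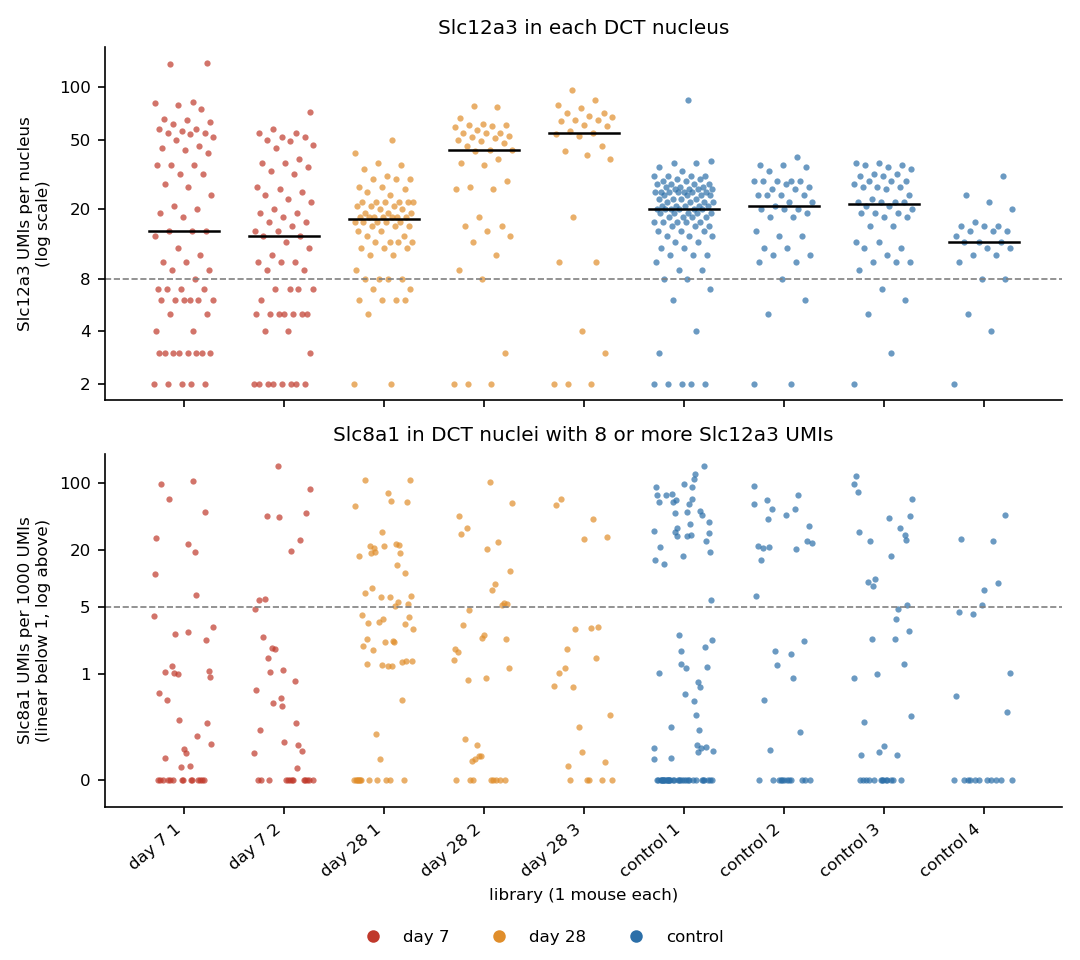
Slc12a3 UMIs in each DCT nucleus by library (top, log axis, bars are medians, dashed line at 8 UMIs) and Slc8a1 UMIs per 1000 UMIs in the DCT nuclei with 8 or more Slc12a3 UMIs (bottom, linear below 1 and logarithmic above, dashed line at 5). The day 7 libraries hold the most nuclei under the upper line, and in every library the nuclei spread from no Slc8a1 to far above the lower line.

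DCT genes that the rule did not read were high in the chosen nuclei. Slc8a1 averaged 8869 CPM in DCT nuclei and 289 CPM in all other nuclei of the IRI libraries, and 13516 CPM against 319 CPM in controls. Calb1 stood at 470 CPM in DCT nuclei and 11.0 CPM in other nuclei after IRI, and at 646 CPM against 19.7 CPM in controls. Klhl3 averaged 867 CPM in DCT nuclei against 32.9 CPM after IRI, and 690 CPM against 35.9 CPM in controls. These are descriptions of chosen nuclei, with no test. Parvalbumin (Pvalb), a marker of the early DCT, was barely counted, with 13 UMIs over all 490 nuclei.

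Ranked by level over all other nuclei of the same libraries, the 12 leading genes of DCT nuclei in controls were Slc12a3, Slc8a1, Trpm6, Abca13, Calb1, Tox3, Klhl3, Cdk14, Cadps2, Prkd1, Phactr1 and Acss3. After IRI the 12 were Slc12a3, Abca13, Slc8a1, Calb1, Tox3, Klhl3, Ptgfr, Defb1, Cwh43, Phactr1, Sall3 and Tmem52b. Several of these are not particular to the segment. Connecting tubule and principal-cell nuclei, chosen by Scnn1b, Scnn1g and Aqp2, held Slc8a1 at 10409 CPM after IRI and 7862 CPM in controls and more Phactr1 than DCT nuclei did (4091 and 2095 CPM, against 1713 and 1180 CPM in DCT nuclei). Trpm6 was among the 12 in controls only. DCT nuclei held 791 CPM of it and other nuclei 155 CPM after IRI, and DCT nuclei held 628 CPM and other nuclei 6.59 CPM in controls.

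RNA of other cell types was present in DCT nuclei. The summed level of 11 proximal tubule markers in DCT nuclei was 2082 and 1769 CPM at day 7, 1567 to 2578 CPM at day 28 and 5777 to 8641 CPM in controls. A set of 800 nuclei had at least 3 UMIs of endothelial, stromal or leukocyte markers and is called non-tubular nuclei here. DCT, TAL, connecting tubule and principal-cell nuclei were left out of it, but proximal tubule nuclei and doublets were not. It held the proximal tubule markers at 2081 and 1901 CPM at day 7 and 1115 to 2551 CPM at day 28. In controls it held 8315 to 11368 CPM, and all nuclei other than DCT held 10773 to 14443 CPM. DCT nuclei held more of these markers than non-tubular nuclei in 3 of the 5 IRI libraries, by most in day 28 replicate 2 (1567 against 1115 CPM), and less in every control. Proximal tubule RNA moved with the groups. The 6 TAL markers outside the rule summed to 411 to 851 CPM in DCT nuclei over the libraries. Non-tubular nuclei held 88.3 to 363 CPM of them, less in every library, and all other nuclei held 305 to 538 CPM. Of 5 endothelial markers measured, 4 had UMIs in DCT nuclei of each group, with sums from 10.3 to 68.8 CPM over the libraries against 1021 to 2567 CPM in non-tubular nuclei, and Kdr was at 0. Of 5 connecting tubule and principal-cell markers, 1 had UMIs in DCT nuclei at day 7, 3 at day 28 and 4 in controls, with sums up to 40.5 CPM after IRI and from 19.6 to 255 CPM in controls, the highest in replicate 4.

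Among the 401 DCT nuclei with 8 or more Slc12a3 UMIs, Slc8a1 divided the members. At a boundary of 5 UMIs per 1000, chosen after the values were seen, 135 nuclei were Slc8a1-high and 266 were low. No Slc8a1 was counted in 121 nuclei, 37 lay between 3 and 8 per 1000, and the highest value was 148 per 1000. Slc8a1-high nuclei made up 20% and 22.0% of these nuclei at day 7, 42.6%, 34.2% and 20.8% at day 28, and 37.8%, 45.9%, 37.2% and 27.3% in controls. Both day 7 libraries and day 28 replicate 3 were lower than every control, and the other day 28 libraries fell among the controls.

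Slc8a1-high and Slc8a1-low nuclei also differed in other genes, and did so at each time. Summed over each group, Calb1 was at 1094 CPM in Slc8a1-high and 80.7 CPM in Slc8a1-low nuclei at day 7, 1592 against 158 CPM at day 28 and 1982 against 163 CPM in controls. Egf ran the other way, at 63.6 CPM in high and 600 CPM in low nuclei at day 7, 470 against 2396 CPM at day 28 and 797 against 2292 CPM in controls. Klotho (Kl), a co-receptor of the hormone Fgf23, the vitamin D receptor Vdr, the sphingomyelin synthase Sgms2 and Phactr1 were all higher in the Slc8a1-high nuclei of each group, and Erbb4, a receptor of the neuregulin family, and Abca13 were lower. Slc12a3 differed little between them, at 8192 against 8553 CPM, 10483 against 11720 CPM and 8764 against 8810 CPM. The split was drawn on the same nuclei, so none of this was tested. In the sums over DCT nuclei that follow, a change in the share of Slc8a1-high nuclei and a change per nucleus cannot be told apart.

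DCT nuclei made up 1.87% and 1.78% of nuclei at day 7, 3.76%, 1.07% and 2.08% at day 28, and 2.76%, 1.61%, 1.05% and 1.03% in controls. IRI and control libraries overlapped. The mean was 2.11% ± 0.995 after IRI (SD, n = 5) and 1.61% ± 0.809 in controls (SD, n = 4), a difference with p = 0.429 in a two-sided exact permutation test whose smallest possible p is 0.00794. Nuclei with fewer than 1000 UMIs were then left out and the others thinned to 1000 UMIs. The difference was -0.132 percentage points (exact permutation p = 0.833). Shares were 1.63% and 1.57% at day 7, 2.95%, 0.982% and 1.76% at day 28 and 2.72%, 1.42%, 0.990% and 2.51% in controls. Of the DCT nuclei, 115 of 136 at day 7, 105 of 141 at day 28 and 173 of 213 in controls held 1000 UMIs or more and could be thinned. The thinned share of control replicate 4 rests on 399 of its 2419 nuclei, 10 of them DCT nuclei. With sorts that differ between the lines, a share of sorted nuclei gives no share of the kidney.

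Gene levels were compared between groups on UMIs summed over the DCT nuclei of each library, with edgeR's quasi-likelihood test and Benjamini-Hochberg adjustment at 0.05 over 4240 genes, and all adjusted p values below are from it unless another test is named. At day 7, DCT nuclei held less of several genes of salt, magnesium and calcium handling than in controls. Among them were Egf, Wnk1, Wnk4, Slc8a1, Calb1, Klk1 and Fxyd2. Control DCT nuclei held Fxyd2 at the level of other nuclei, and Klk1 was lower at day 7 in non-tubular nuclei too. By day 28 no DCT marker that was tested differed from control past the threshold, though 1 rose with 8 or more Slc12a3 UMIs required. Egf, Wnk1, Klhl3 and Tmem52b were higher at day 28 than at day 7. Genes raised at both times and higher in DCT nuclei than in other nuclei included Nrxn3 and Kctd1. Injury genes such as Havcr1, Vcam1 and Spp1 rose too. Havcr1 and Spp1 averaged no more in DCT nuclei than in the non-tubular nuclei, a set from which proximal tubule nuclei were not removed. Over all genes, 935 of 4240 differed between day 7 and control (22.1%; 370 rose and 565 fell), 520 between day 28 and control (12.3%; 211 rose and 309 fell) and 109 between day 28 and day 7 (2.57%; 83 rose and 26 fell). These counts were, with the barcode set as a term, 45 (30 rose and 15 fell), 77 (43 and 34) and 60 (45 and 15). Only day 28 held both barcode sets, so that term was estimated from its replicate 1 against its replicates 2 and 3. Without DCT nuclei that held 3 or more UMIs of other classes' markers (Slc34a1, Slc5a12, Slc22a6, Miox, Umod and Slc12a1, summed) the balance of the first 2 comparisons turned. It went to 245 that rose and 177 that fell at day 7 and 99 and 34 at day 28. This filter took out unlike parts of the groups: it kept 86 of 213 control nuclei, 108 of 136 at day 7 and 114 of 141 at day 28. It left 2392 genes to test. The first count as reported was 452 and 434 without day 7 replicate 1 or 2. The second was 261, 277 and 338 without day 28 replicate 2, day 28 replicate 3 or control replicate 2. The third was 31, 24 and 58 without day 7 replicate 1, day 7 replicate 2 or day 28 replicate 1. Nothing in the labels links libraries beyond their group, so these p values measure the spread between single libraries, part of which may be technical.

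Of 20 genes of salt transport and its control by WNK and SPAK kinases, 16 could be tested. At day 7, 6 of the 16 fell and none rose against a background of 13.3% of all tested genes falling (3 with 8 or more Slc12a3 UMIs required and 0 with the barcode set as a term), and their median log2 change was -0.77, with -0.01 for all genes. At day 28 only Fxyd2 fell (background 7.29%; median -0.11, all genes 0.04), and between day 28 and day 7 Wnk1, Klhl3 and Ppp1r1a rose (background 1.96%; median 0.64, all genes 0.01). For day 28 against control, 1 rose and 1 fell with 8 or more Slc12a3 UMIs required. With the barcode set as a term 1 rose and none fell.

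Wnk1, on chromosome 6 (119923969 to 120038672, minus strand), was at 1477 and 1386 CPM in DCT nuclei at day 7, 3209, 2749 and 2331 CPM at day 28 and 3082, 2495, 2641 and 3022 CPM in controls. Both day 7 libraries were below all others, and the day 28 and control libraries overlapped. The log2 change was -1.27 ± 0.28 (SE) for day 7 against control (adjusted p = 0.0022) and 1.12 ± 0.28 for day 28 against day 7 (adjusted p = 0.037). Other nuclei of the same libraries averaged 448 CPM at day 7, 375 CPM at day 28 and 289.7 CPM in controls.

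Wnk4, the second kinase, stood at 234 and 192 CPM at day 7, 329, 216 and 220 CPM at day 28 and 350, 294, 203 and 681 CPM in controls. Its log2 change of -0.93 ± 0.33 at day 7 was just past the threshold (adjusted p = 0.049), and control replicate 3 lay among the day 7 values. Klhl3, on chromosome 13 (58000228 to 58113592, minus strand), was at 496 and 550 CPM at day 7, 1070, 1054 and 1166 CPM at day 28 and 567, 597, 530 and 1064 CPM in controls. It was higher at day 28 than at day 7 in every library, by 1.24 ± 0.28 on the log2 scale (adjusted p = 0.023). Neither IRI group differed from control past the threshold (adjusted p = 0.13 at day 7 and 0.085 at day 28). Stk39, the kinase between WNKs and Slc12a3, was at 489 and 496 CPM at day 7, 375 to 628 CPM at day 28 and 218 to 405 CPM in controls and passed no test.

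Fxyd2, the gamma subunit of the sodium-potassium pump, had 244 and 206 CPM at day 7, 704, 446 and 293 CPM at day 28 and 905, 988, 972 and 1277 CPM in controls. Neither IRI group overlapped the controls, and the log2 changes were -2.46 ± 0.34 at day 7 (adjusted p = 3.6e-05) and -1.22 ± 0.28 at day 28 (adjusted p = 0.0057; 0.06 without day 28 replicate 3). Other nuclei held 107 CPM at day 7, 152 CPM at day 28 and 1004 CPM in controls, so control DCT nuclei were at the level of their surroundings and the part of free RNA in this fall was not tested. Sgk1, an aldosterone-induced kinase with 1 UMI in all DCT nuclei at day 7, was also among the genes that fell.

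Of 12 calcium genes, 10 were tested at day 7, and 6 fell against a background of 13.3% (Calb1, S100g, Slc8a1, Vdr, Klk1 and Kl), while Pth1r, the receptor of parathyroid hormone, rose. The median log2 change was -0.99. The falls numbered 4 with 8 or more Slc12a3 UMIs required and 0 with the barcode set as a term. At day 28 none of the 10 differed from control past the threshold (median -0.43), and 1 fell with 8 or more Slc12a3 UMIs required.

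Slc8a1 was at 5869 and 6969 CPM at day 7, 10999, 10191 and 10317 CPM at day 28 and 19746, 13759, 11832 and 8727 CPM in controls. Its log2 change was -1.40 ± 0.34 at day 7 (adjusted p = 0.005) and -0.51 at day 28 (adjusted p = 0.26). Calb1, the calcium carrier of the late DCT, was at 120 and 388 CPM at day 7, 631, 885 and 326 CPM at day 28 and 1155, 558, 617 and 255 CPM in controls. Replicate 4 of the controls lay between the day 7 libraries, and the log2 change at day 7 was -1.84 ± 0.47 (adjusted p = 0.0078). With DCT nuclei thinned to 1000 UMIs, 5.00% and 16.4% held a Calb1 UMI at day 7, 43.2%, 27.5% and 17.9% at day 28 and 44.7%, 30.6%, 26.2% and 10.0% in controls, and IRI did not differ from control past the threshold (exact permutation p = 0.540, adjusted over 8 genes 0.863).

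Klk1, tissue kallikrein, a protease secreted by the late DCT and connecting tubule, had 6.88 and 9.83 CPM at day 7, 54.9, 122 and 19.98 CPM at day 28 and 70.9, 225, 138 and 596 CPM in controls. The log2 change at day 7 was -4.61 ± 0.80 (adjusted p = 0.00031), with both day 7 libraries below every other library, and non-tubular nuclei held 6.44, 11.2 and 83.9 CPM of it. S100g, the small calcium-binding calbindin, fell by 2.80 ± 0.61 at day 7 (adjusted p = 0.0023), but other nuclei held 102 CPM of it in controls and 8.41 CPM at day 7. Pth1r was at 272 and 585 CPM at day 7, 91.4, 169 and 86.6 CPM at day 28 and 167, 137, 167 and 341 CPM in controls. It rose by 0.95 ± 0.34 at day 7 (adjusted p = 0.047) and was lower at day 28 than at day 7 (-1.67 ± 0.36, adjusted p = 0.014).

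Of 14 magnesium genes, 6 were tested, and at day 7 only Egf fell (background 13.3%) and none rose (median 0.01). Between day 28 and day 7 only Egf rose (median 0.54). Egf, on chromosome 3 (129677565 to 129755316, minus strand), was at 372 and 437 CPM at day 7, 1115, 905 and 2464 CPM at day 28 and 1806, 822, 1908 and 1022 CPM in controls. Each day 7 library was below each day 28 and control library. The log2 change was -2.13 ± 0.41 for day 7 against control (adjusted p = 0.00078) and 2.06 ± 0.42 for day 28 against day 7 (adjusted p = 0.01), and for day 28 against control it was -0.07 (adjusted p = 0.93). All other nuclei, which include the Egf-expressing TAL, held 81.5, 264 and 339 CPM at day 7, at day 28 and in controls, and non-tubular nuclei 6.44, 7.39 and 58.6 CPM. The fall at day 7 passed the threshold under each of the 20 alternatives run for that comparison.

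Trpm6 was at 523 and 629 CPM at day 7, 1134, 797 and 873 CPM at day 28 and 722, 548, 646 and 596 CPM in controls. None of its comparisons passed (adjusted p = 0.25 at day 7, 0.29 at day 28 and 0.12 for day 28 against day 7). Trpm7, its close relative, was at 823 and 1194 CPM at day 7, 1379 to 1518 CPM at day 28 and 705 to 1103 CPM in controls and did not pass either.

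**Figure D2:**
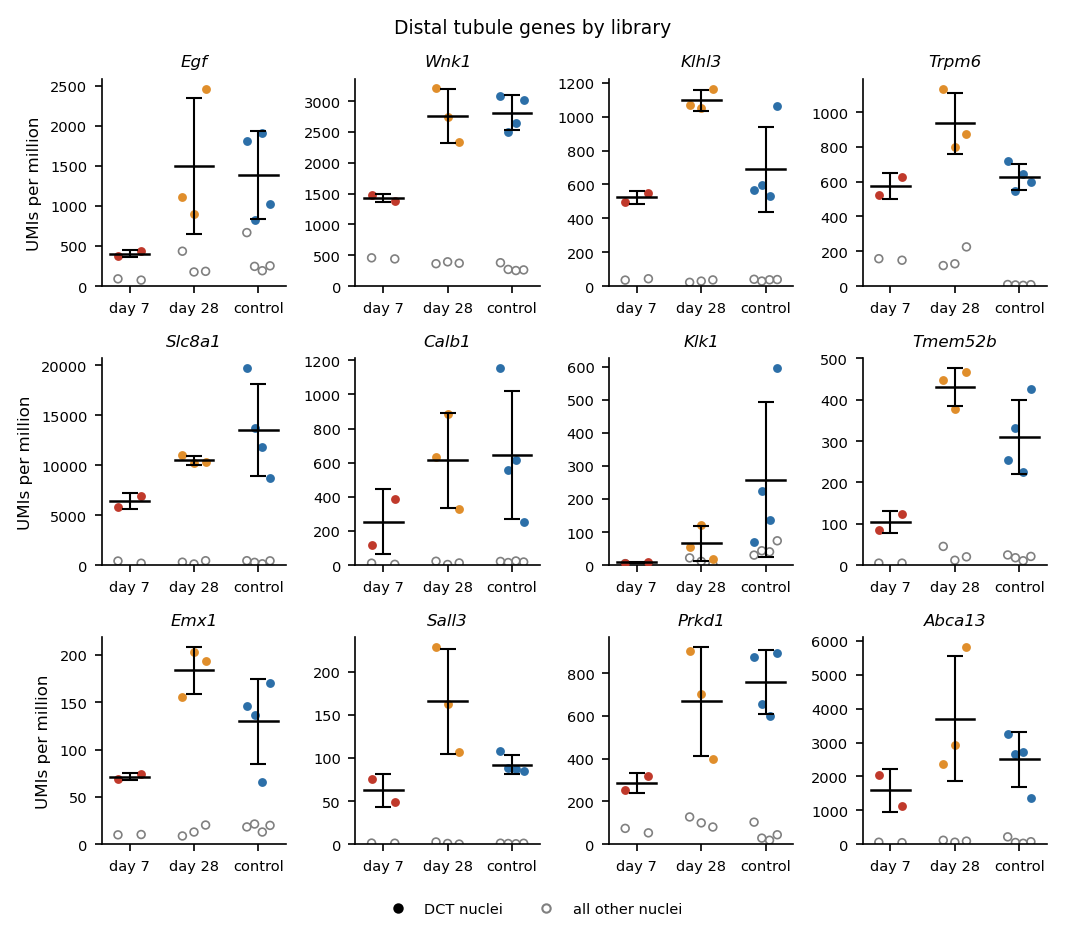
Levels of 12 distal genes in the summed DCT nuclei of each library (filled points, CPM, bars are mean ± SD) and in all other nuclei of the same library (open grey points), by group. Egf, Wnk1, Klk1 and Tmem52b are lower in both day 7 libraries than in every day 28 and control library, and Trpm6 is not.

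Further genes with high levels in distal nuclei were read one by one. Tmem52b, a membrane protein used as a DCT marker, was at 86.1 and 123 CPM at day 7, 448, 378 and 466 CPM at day 28 and 254, 333, 225 and 426 CPM in controls. It fell by 1.78 ± 0.32 at day 7 (adjusted p = 0.00048) and was 2.23 ± 0.32 higher at day 28 than at day 7 (adjusted p = 0.00043). Other nuclei held 4.82, 25.7 and 18.5 CPM at day 7, at day 28 and in controls. Prkd1, protein kinase D1, was at 255 and 319 CPM at day 7, 905, 702 and 400 CPM at day 28 and 876, 656, 602 and 894 CPM in controls, with log2 changes of -1.69 ± 0.33 (adjusted p = 0.00078) and, for day 28 against day 7, 1.39 ± 0.33 (adjusted p = 0.029). The beta-defensin Defb1, the kininogen Kng2 and Scnn1a, the alpha subunit of the epithelial sodium channel, also fell at day 7, by 1.97, 1.05 and 1.68 on the log2 scale, and Defb1 changed sign with the barcode set as a term (0.63). Abca13, a lipid transporter of the ABC family and one of the leading DCT genes, was at 2034 and 1140 CPM at day 7, 2377 to 5821 CPM at day 28 and 1362 to 3245 CPM in controls and passed no test. Of the 9 DCT markers that the rule did not read, 8 were tested: 5 fell at day 7 (background 13.3%; median -1.33), none differed at day 28 (median 0.15), and 4 rose between day 28 and day 7 (background 1.96%; median 1.31). Of the 8, 1 fell at day 7 and 4 rose between day 28 and day 7 with the barcode set as a term. With 8 or more Slc12a3 UMIs required, 4 fell at day 7, 1 rose at day 28 and 2 rose between day 28 and day 7.

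Distal transcription factors were mixed. Of 16 genes, 13 were tested. At day 7 Emx1 and Ppargc1a fell (background 13.3%) and Pax2 and Pax8 rose (background 8.73%), with a median of -0.22. The falls were thus close to their background. None differed at day 28 (median 0.44). Between day 28 and day 7 Emx1 and Sall3 rose (background 1.96%) and Pax8 fell (background 0.613%), with a median of 0.49. Emx1, a homeobox gene of the distal nephron, was at 68.8 and 73.7 CPM at day 7, 155, 203 and 193 CPM at day 28 and 146, 137, 65.3 and 170 CPM in controls. Its log2 change was -1.09 ± 0.38 at day 7 (adjusted p = 0.04) and 1.53 ± 0.37 for day 28 against day 7 (adjusted p = 0.029). Sall3, a zinc finger factor, was at 75.7 and 49.1 CPM at day 7 and 229, 162 and 107 CPM at day 28, with 85.1 to 108 CPM in controls, and differed past the threshold only between day 28 and day 7 (1.50 ± 0.39, adjusted p = 0.042). Pax8, a factor of the whole nephron lineage, was at 902 and 988 CPM at day 7, 238, 425 and 393 CPM at day 28 and 238, 157, 225 and 341 CPM in controls. It rose by 1.76 ± 0.28 at day 7 (adjusted p = 0.00014) and was lower at day 28 than at day 7 (-1.24 ± 0.28, adjusted p = 0.02), and other nuclei held more of it than DCT nuclei did in each group (1435, 830 and 398 CPM).

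These comparisons were repeated without the nuclei near the threshold, of which day 7 had more. With 8 or more Slc12a3 UMIs required, a choice made after the data were seen, Egf (-1.94), Calb1 (-1.51) and Wnk1 (-1.04) still passed at day 7, while Slc8a1 (adjusted p = 0.064), Wnk4, Emx1, Ppargc1a, Kl and Pth1r did not. For day 28 against day 7, Egf and Tmem52b still passed, and Wnk1 (adjusted p = 0.086), Klhl3 (0.059) and Emx1 (0.074) did not. Every control had one barcode set and every day 7 library the other. With the barcode set as a term, Egf was the only distal gene named above that still fell at day 7 (-2.68, adjusted p = 0.035). The term was estimated within day 28 alone, where replicate 1 was the only library with the set of the controls. Values adjusted in this way thus rest on that library. Between day 28 and day 7, where the barcode sets overlap, Egf, Klhl3, Emx1 and Tmem52b kept their calls with that term. Single libraries decided several calls. At day 7, Egf, Klk1, S100g, Fxyd2, Tmem52b and Pax8 passed whichever library was left out. Leaving out either day 7 library ended the calls of Slc8a1 (log2 change -1.61 to -1.18, adjusted p up to 0.14), Wnk1 (-1.32 to -1.10, up to 0.13), Vdr, Kl, Kng2 and Defb1, and leaving out day 7 replicate 1 ended those of Calb1 (up to 0.24) and Prkd1 (0.054). The calls of Wnk4, Emx1, Ppargc1a, Pax2, Pth1r and Scnn1a each ended when any single one of 3 or more libraries was left out. Between day 28 and day 7, leaving out either day 7 library ended the calls of Egf (1.50 to 2.35, adjusted p up to 0.21), Klhl3, Wnk1, Emx1, Sall3, Pax8 and Prkd1, and that of Tmem52b ended without day 7 replicate 1 (0.058).

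Some genes that rose after IRI were higher in DCT nuclei than in other nuclei, but at day 7 against control they made up a smaller share of the genes that rose than of all tested genes, a difference that was not tested. Of the 370 genes that rose at day 7, 55 were higher in DCT nuclei than in all other nuclei and than in the non-tubular nuclei of every day 7 library (14.9%; 21.9% of all tested genes met this). For day 28 against control the count was 38 of 211 (18.0%, background 14.5%), and for day 28 against day 7 it was 32 of 83 (38.6%, background 14.5%). Rises and levels were read from the same DCT sums, which favours a share above the background, so these shares are a description only. Read alike in the control libraries, 46 of the 565 genes that fell at day 7 were higher in DCT nuclei (8.14%, background 8.94%). Of the 309 that fell at day 28, 2 were (0.647%, background 8.94%). This reading was chosen after the data were seen, as were the genes named from it.

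Nrxn3, neurexin 3, an adhesion protein best known from synapses, was at 544 and 703 CPM in DCT nuclei at day 7, 448, 351 and 653 CPM at day 28 and 104, 0, 58.0 and 341 CPM in controls. All IRI libraries were above all controls. It rose by 2.59 ± 0.47 at day 7 (adjusted p = 0.00049) and 2.40 ± 0.46 at day 28 (adjusted p = 0.0014), while other nuclei held 37.5, 56.0 and 32.7 CPM at day 7, at day 28 and in controls. Kctd1, a repressor with a BTB domain, was at 740 and 482 CPM at day 7, 375, 662 and 586 CPM at day 28 and 263, 166, 174 and 85.1 CPM in controls. Its log2 changes were 1.33 ± 0.32 (adjusted p = 0.0046) and 1.31 ± 0.30 (adjusted p = 0.0056), and day 28 against day 7 gave -0.01. The call at day 7 ended without replicate 1 of that group (adjusted p = 0.17). Lamb1, a laminin chain, the sarcoglycan Sgcd, the protease Pappa and Fam110b passed at both times as well, with log2 changes from 1.23 to 2.48. Leaving out any of 2 libraries at day 7 or 4 at day 28 ended the calls of Pappa (adjusted p up to 0.2), and Lamb1 lost its call at day 28 without day 28 replicate 2 or control replicate 2. Sgcd lost its calls without day 7 replicate 2 and without day 28 replicate 2, and Fam110b at day 7 without day 7 replicate 1. With the barcode set as a term, the rise of Nrxn3 passed at day 28 (2.33, adjusted p = 0.024) and not at day 7 (2.48, adjusted p = 0.087), and that of Kctd1 passed at neither time (0.64 and 0.81).

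Some genes passed at one time only, and only the day 28 against day 7 test bears on the difference in time. Fgf13, an intracellular fibroblast growth factor homologue that binds sodium channels, was at 107 and 73.7 CPM at day 7, 229, 142 and 286 CPM at day 28 and 41.7, 29.4, 87.1 and 85.1 CPM in controls. It rose by 1.83 ± 0.39 at day 28 (adjusted p = 0.0034), and day 28 against day 7 just missed the threshold (1.41, adjusted p = 0.055). Cadps2, which acts in vesicle release, was at 688 and 732 CPM at day 7, 1152, 1040 and 939 CPM at day 28 and 563, 470, 421 and 426 CPM in controls, a rise of 0.97 ± 0.24 at day 28 (adjusted p = 0.0084). Adamts16, a secreted protease, was at 155 and 162 CPM at day 7, 54.9, 47.3 and 86.6 CPM at day 28 and 9.79 to 42.6 CPM in controls, a rise of 2.27 ± 0.43 at day 7 (adjusted p = 0.00061). Cdkl1, a kinase related to cyclin-dependent kinases, was at 134 and 182 CPM at day 7, 183, 365 and 486 CPM at day 28 and 123 to 170 CPM in controls, and was 1.32 ± 0.34 higher at day 28 than at day 7 (adjusted p = 0.041). With the barcode set as a term, Fgf13 (1.94, adjusted p = 0.052) and Cadps2 (1.15, adjusted p = 0.059) just missed the threshold at day 28, and Adamts16 at day 7 did not pass (adjusted p = 0.4).

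Day 28 libraries also held RNAs that were nearly missing at day 7. The opioid receptor Oprm1 had 1 UMI over all DCT nuclei at day 7, 50 at day 28 and 33 in controls, a ratio of 60.6 for day 28 over day 7 with a 95% counting interval from 10.4 to 2441. Fndc9 had 3 UMIs at day 7, 51 at day 28 and 37 in controls, a ratio of 20.6 (interval 6.66 to 103). Fndc9 lies over Cyfip2 and Oprm1 over Ipcef1 on the other strand, and the sources used here do not say that counting used strand, so reads of either pair cannot be told apart. Sorbs2os, an RNA antisense to Sorbs2 by its name, Gm26573, Gm26790, Gm17268, Gm20275, Gm35188 and Gm28285 make up the rest, with Oprm1, of the 8 largest rises at day 28 over day 7 among genes whose libraries did not overlap. The 8 largest falls were Hs3st5, Cdh13, Kcnq5, Dkk2, Myo15b, Gm42418, Robo2 and Havcr1. Single libraries ended several of these calls. Of 9 libraries left out in turn, 8 ended that of Robo2, 7 that of Myo15b, 6 that of Dkk2 (adjusted p up to 0.88), 3 that of Kcnq5 and 1 that of Hs3st5. Among the rises, Gm26790 lost its call in 6 of the 7 fits that tested it, Sorbs2os in 3 of 6 and Gm28285 in 1 of 9. Gm42418 overlaps ribosomal RNA and stood at 8612 and 11038 CPM at day 7, 283 to 1865 CPM at day 28 and 421 to 596 CPM in controls, with like levels in non-tubular nuclei (10115, 1233 and 292 CPM).

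**Figure D3:**
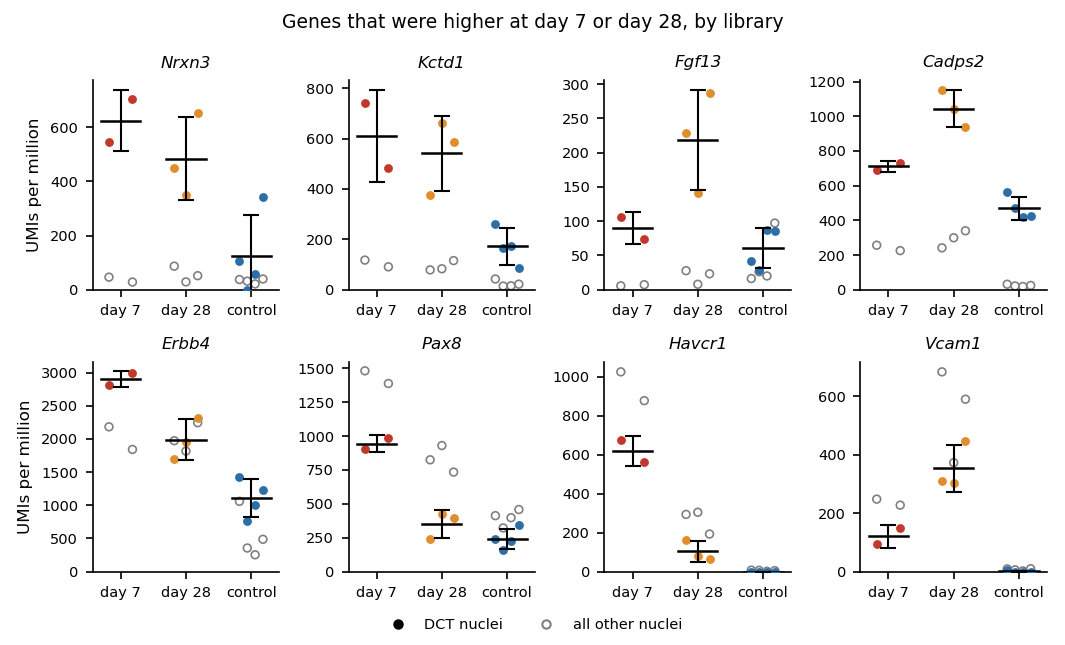
Levels of 8 genes in the summed DCT nuclei of each library (filled points, CPM, bars are mean ± SD) and in all other nuclei of that library (open grey points), by group. Nrxn3, Kctd1, Fgf13 and Cadps2 are higher in DCT nuclei than in other nuclei after IRI, whereas Pax8, Havcr1 and Vcam1 are not.

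Injury and repair genes were counted in DCT nuclei of the IRI libraries. Of 26 genes, 15 were tested: 13 rose at day 7 (background 8.73%; median 3.65) and 10 rose at day 28 (background 4.98%; median 2.97), none fell, and 8 rose at each time with the barcode set as a term. Between day 28 and day 7, Vcam1 rose and Havcr1 and Cp fell. The kidney injury molecule Havcr1 was at 675 and 565 CPM at day 7, 165, 81.0 and 66.6 CPM at day 28 and 0 in all 4 controls. Against a floor of 3 UMIs over the control group this is at least 106-fold higher at day 7 and at least 16.5-fold higher at day 28, and day 28 was lower than day 7 (log2 change -2.45 ± 0.36, adjusted p = 0.00063). Other nuclei held 952, 264 and 5.18 CPM and non-tubular nuclei 706, 160 and 3.70 CPM, so the mean level in DCT nuclei did not exceed that in either set. Proximal tubule nuclei were not removed from the non-tubular set, and the part of free RNA was not tested.

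The adhesion receptor Vcam1 was at 92.9 and 147 CPM at day 7, 311, 304 and 446 CPM at day 28 and 4.17, 0, 0 and 0 CPM in controls. It was 1.75 ± 0.33 higher at day 28 than at day 7 (adjusted p = 0.0047; up to 0.25 without either day 7 library), while non-tubular nuclei, some of which can express this gene themselves, held 237 CPM at day 7 and 234 CPM at day 28, and all other nuclei held 237 and 548 CPM. Osteopontin (Spp1) was at 520 and 678 CPM at day 7, 512, 486 and 280 CPM at day 28 and 154, 117, 79.8 and 0 CPM in controls, with 656, 438 and 172 CPM in non-tubular nuclei. It rose by 2.08 ± 0.36 at day 7 (adjusted p = 0.0003) and 1.76 ± 0.35 at day 28 (adjusted p = 0.0019).

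Per nucleus, at 1000 UMIs each, Havcr1 was counted in 33.3% and 21.8% of DCT nuclei at day 7, 21.6%, 7.50% and 7.14% at day 28 and none in controls. In non-tubular nuclei thinned alike the shares were 31.8% and 35.4% at day 7 and 14.3%, 11.8% and 7.08% at day 28. The exact permutation p of IRI against control was 0.0238, 0.0952 after adjustment over 8 genes. Vcam1 was counted in 8.33% and 10.9% of DCT nuclei at day 7, 8.11%, 12.5% and 14.3% at day 28 and none in controls (exact permutation p = 0.00794, adjusted 0.0635), against 11.2% and 14.1% and 9.68% to 19.0% of non-tubular nuclei. Without thinning the means over IRI libraries were 28.4% for Havcr1 and 21.5% for Vcam1. The share in DCT nuclei was above that in non-tubular nuclei in 3 of 5 IRI libraries for Havcr1 and in 2 of 5 for Vcam1. The part of free RNA in these shares was not tested. Krt20, whose promoter drives the tracing Cre, was counted at this depth only in day 28 replicate 2, in 2.50% of 40 DCT nuclei.

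Further lists held genes that other nuclei carried as well. Of 21 genes of the NF-kB pathway and chemokines, 6 were tested, and 5 rose at day 7 (background 8.73%) and at day 28 (background 4.98%), each time Nfkb1, Relb, Nfkbiz, Il34 and Birc3 (medians 2.93 and 2.78). Of the 6, 1 rose at day 7 and 2 at day 28 with the barcode set as a term. Il34, a ligand of the macrophage growth factor receptor, was at 637 and 978 CPM at day 7, 378 to 559 CPM at day 28 and 36.3 to 97.9 CPM in controls, but non-tubular nuclei held 979, 591 and 102 CPM. Of 20 genes of TGF-beta, matrix and PDGF, 12 were tested, and 5 rose at day 7 (Tgfbr2, Smad3, Col4a2, Pdgfb and Pdgfd; background 8.73%, median 1.31) and 5 at day 28 (Smad7, Col4a1, Col4a2, Pdgfb and Pdgfd; background 4.98%, median 1.00). With that term 1 of the 12 rose at each time. Of 16 immediate early genes only Klf6 and Ier3 were tested: Ier3 fell at day 7 and Klf6 rose at day 28. Of 16 genes of stress, heat shock and hypoxia, 6 were tested, and 4 fell at day 7 (Hspa8, Hsph1, Gclc and Vegfa; background 13.3%, median -1.62) and 1 at day 28 (background 7.29%), and none fell at either time with the barcode term. None of 19 cell cycle genes reached the minimum count for a test.

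Genes of the respiratory chain and energy supply were lower after IRI. Of 24 genes, 20 were tested: 12 fell at day 7 (background 13.3%; median -1.71) and 6 at day 28 (background 7.29%; median -0.86), none rose in either, and 1 (Cox7c) rose between day 28 and day 7. None of the 20 fell at either time with the barcode set as a term. Cox6c, a subunit of cytochrome c oxidase, was at 34.4 and 14.7 CPM at day 7, 110, 13.5 and 13.3 CPM at day 28 and 100.1, 323, 152 and 255 CPM in controls (-3.13 ± 0.63 at day 7, adjusted p = 0.0011). Non-tubular nuclei held 18.1, 35.9 and 250.2 CPM at day 7, at day 28 and in controls, in the range of the DCT libraries of each group. Proximal tubule markers behaved alike: all 11 were tested, 9 fell at day 7 (median -2.87) and 9 at day 28 (median -2.24), and 3 and 5 with the barcode term. The sodium-phosphate cotransporter Slc34a1 was at 416 and 354 CPM in DCT nuclei at day 7, 338 to 622 CPM at day 28 and 1927 to 2895 CPM in controls, against 325, 365 and 2710 CPM in non-tubular nuclei. How much of these falls belongs to DCT nuclei was not tested.

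Libraries of day 7 and control did not overlap for 45.4% of tested genes, those of day 28 and control for 21.7% and those of day 28 and day 7 for 34.2%. Past the threshold as well were 19%, 9.5% and 2.57%. By size of change among these, the 8 largest rises at day 7 were Havcr1, Creb5, Runx1, Kcnh8, Npas3, Hs3st5, Osmr and AC133498.1, and those at day 28 included Creb5, Kcnh8, Runx1, Npas3, Havcr1, Vcam1 and Sorcs1. The transcription factors Creb5 and Runx1 had no UMI in control DCT nuclei and were at least 55.4-fold and 49.2-fold higher at day 7 and at least 31.3-fold and 24.7-fold higher at day 28. Other nuclei carried Creb5 at 417, 407 and 7.83 CPM and Runx1 at 306, 207 and 2.66 CPM. The 8 largest falls at day 7 were Ndufb9, Gm45435, Gm26759, Cyp2d12, Gm11273, Ormdl2, mt-Nd1 and Ftcd, and at day 28 Cyp4a14, Col6a6, Cyp2d12, Ftcd, Gm40271, Ppfia3, Aadat and Cyp4a10. Ftcd, an enzyme of histidine breakdown in proximal tubule and liver, had 2 UMIs at day 7, 1 at day 28 and 126 in controls. None of these lists of largest changes led with a DCT gene.

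DCT nuclei were set against TAL nuclei of the same libraries to ask whether IRI acted differently on neighbouring segments. The 1697 TAL nuclei (369 at day 7, 433 at day 28 and 895 in controls) were chosen by Slc12a1 in the same way. The change after IRI differed between DCT and TAL for 21 of 6331 genes (0.332%): 14 were more positive (0.221%) and 7 more negative (0.111%) in DCT nuclei. Without DCT nuclei that held RNA of other classes, 168 genes differed, 159 more positive and 9 more negative, and 9 of the 168 were among the 21. That filter was not applied to TAL nuclei, and it kept 86 of 213 control DCT nuclei, 108 of 136 at day 7 and 114 of 141 at day 28. The segments and groups were thus not treated alike, and the 168 cannot be read as a difference between segments. None of 18 tested salt transport genes differed, and of 9 tested magnesium genes Trpm7 was more positive and Trpm6 more negative in DCT nuclei.

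Fgf13 differed most among the genes more positive in DCT nuclei (3.38 ± 0.55, adjusted p = 2.6e-05). While DCT nuclei were higher at day 28 than in controls, TAL nuclei held 2.04 and 5.16 CPM at day 7, 19.5, 5.76 and 12.7 CPM at day 28 and 15.5, 28.1, 26.7 and 71.9 CPM in controls. Nrxn3 was high in both segments after IRI, at 558 and 244 CPM at day 7, 609, 467 and 640 CPM at day 28 and 212, 319, 299.9 and 79.9 CPM in controls in TAL nuclei, and its change was 1.81 ± 0.34 larger in DCT nuclei (adjusted p = 0.00067). Cwh43, linked to the lipid anchors of membrane proteins, was at 124 and 49.1 CPM at day 7, 439, 108 and 107 CPM at day 28 and 171, 78.3, 94.3 and 128 CPM in controls in DCT nuclei. In TAL nuclei it was at 7.13 and 10.3 CPM, 53.6, 19.2 and 5.08 CPM, and 70.9, 51.6, 50.5 and 63.9 CPM, in the same order. In TAL nuclei 4 of 5 IRI libraries lay below every control, in DCT nuclei none did except day 7 replicate 2, and the difference of 2.21 ± 0.40 (adjusted p = 0.00049) was lost without day 7 replicate 1 (adjusted p = 0.28).

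The growth factor Pdgfd and the cadherin Cdh6 also differed between the segments. Pdgfd was at 1115 and 1125 CPM at day 7, 530, 817 and 533 CPM at day 28 and 75.1, 0, 116 and 85.1 CPM in controls in DCT nuclei. TAL nuclei already held 240 to 532 CPM in controls and had 868 to 1290 CPM after IRI, so the segments, with a difference of 2.36 ± 0.29 (adjusted p = 5.7e-09), were furthest apart in controls. Other nuclei held 1351, 1358 and 45.2 CPM of Pdgfd, more than DCT nuclei in both IRI groups. Cdh6 followed the same course, at 313 and 388 CPM at day 7, 82.3, 297 and 206 CPM at day 28 and 0 to 20.9 CPM in controls in DCT nuclei, with a difference of 2.62 ± 0.48 (adjusted p = 0.00054).

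In the other direction, Trpm6 had the lowest adjusted p, with a difference of -3.20 ± 0.37 (adjusted p = 6.1e-10). TAL nuclei held 143 and 107 CPM at day 7, 39.0, 98.0 and 88.8 CPM at day 28 and 6.65, 9.37, 11.9 and 24.0 CPM in controls, whereas DCT nuclei had no called change. Non-tubular nuclei moved as TAL nuclei did, at 112, 66.3 and 6.41 CPM. Dlc1, Tenm2, Sgcz, Pip5k1b, Erc2 and Plcb1 were the other genes more negative in DCT nuclei, and Dlc1 too was carried by non-tubular nuclei (507, 807 and 284 CPM). Among the genes more positive in DCT nuclei were also Prrg1 (3.34), Scin (1.92), Kcnip4 (1.84) and Erbb4 (0.79). The calls of Fgf13, Nrxn3, Pdgfd, Cdh6 and Trpm6 held whichever library was left out. Of 9 libraries left out in turn, 4 ended the call of Prrg1, 5 that of Scin, 4 that of Kcnip4 and 7 that of Erbb4 (adjusted p up to 0.54). Among the more negative genes, 1 ended that of Dlc1 (control replicate 1, adjusted p = 0.82), 5 those of Tenm2 and Plcb1, 4 that of Sgcz, 6 that of Pip5k1b and 7 that of Erc2. Leaving out single libraries changed the count of 21 to between 6 genes, without control replicate 1, and 27, and it was 10 without day 7 replicate 1, 10 without day 28 replicate 2 and 13 without control replicate 2. With the barcode set as a term, Pdgfd (2.37) and Kcnip4 (2.55, adjusted p = 0.00052 each) still passed, and the other named genes, Fgf13 (2.57) and Trpm6 (-1.64) among them, did not.

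**Figure D4:**
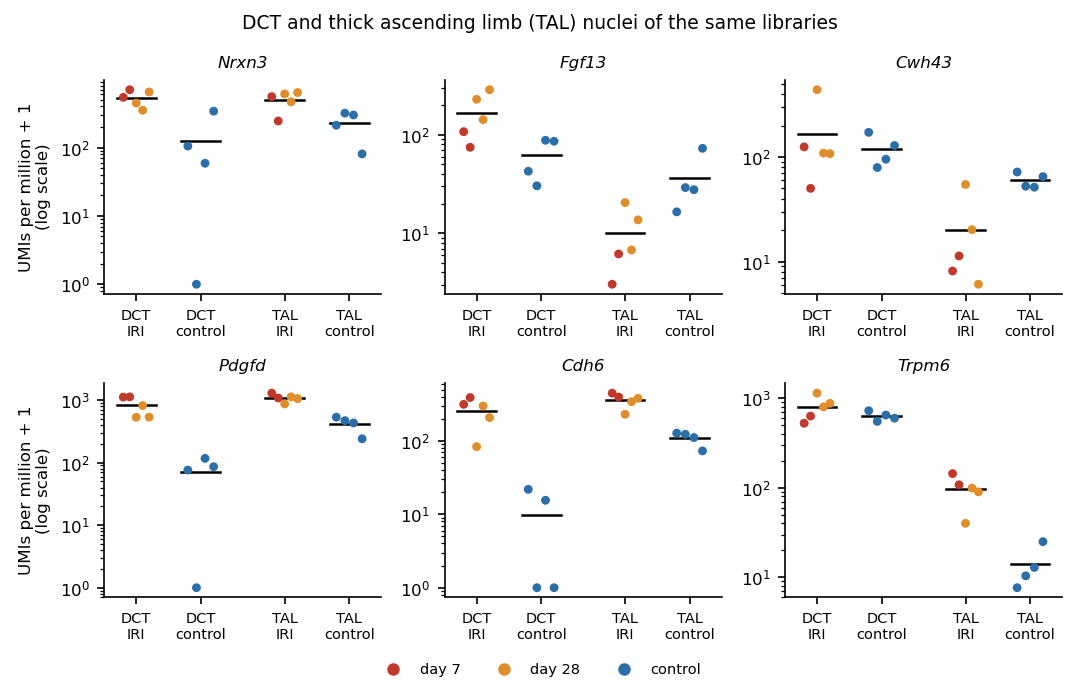
Levels (CPM plus 1, log axis) of 6 genes per library in DCT and in thick ascending limb (TAL) nuclei, with IRI libraries to the left of controls for each segment and bars at the means. In TAL nuclei the IRI means of Fgf13 and Cwh43 are below and that of Trpm6 above the control mean, while in DCT nuclei the IRI mean of Fgf13 is above the control mean and those of Cwh43 and Trpm6 are close to it.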

How the data were processed

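The data are single-nucleus RNA counts of GFP-sorted kidney nuclei from 9 mouse libraries. The deposited values are raw UMI counts per gene and nucleus, which the authors gave in 1 table of control and 1 of IRI nuclei. Cell Ranger, STAR and Seurat were used on genome mm10, per the submitters' processing notes, which give no version. Whether intronic reads, strand or doublet calls were used is not given in the sources used here. The tables hold 17455 and 19342 genes, and the 16939 in both were used. Nuclei were taken as deposited, with no filter on cells and no doublet caller, although doublets were gated out in the sort per the labels' protocols. The nuclei described, the gene lists and the tests were chosen with earlier results of these data known.

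Counts were summed per library over the DCT nuclei (at least 10 nuclei per library, met by all) and tested with edgeR 4.0.16 in R 4.3.3 (TMM scaling, filterByExpr with a minimum count of 10, quasi-likelihood F test, 3 groups in 1 fit, Benjamini-Hochberg at 0.05). The 5 rule genes stayed in library sizes and out of the tests. DCT and TAL sums were compared with the library as a block. SE is the log2 change over the square root of F. Levels in the text are CPM (UMIs per 1000000, without TMM). Shares were compared with two-sided exact permutation tests over libraries. The largest changes named are among the 8 each way past the threshold whose libraries did not overlap; a few genes are not reported here. Other genes are members of the lists, leading genes against other nuclei, or were chosen after their values were seen, as were the minimum of 8 Slc12a3 UMIs, the Slc8a1 boundary, the 800 non-tubular nuclei (3 or more UMIs of endothelial, stromal or leukocyte markers) and the fits within 1 barcode set. Intervals are 95% and cover counting error only. Tested on simulated counts, the fit recovered 69%, 69% and 57% of 4-fold changes and 7%, 9% and 4% of 2-fold changes for day 7 and day 28 against control and day 28 against day 7, and 40% and 2% for DCT against TAL, with no gene called in the wrong direction. The simulated counts used the same spread for every gene, set in advance and not estimated from these data. DCT and TAL counts shared no library effect there. The rates hold for those settings only. Alternatives were DESeq2 1.42.0, other scaling, filters, thresholds and fits without single libraries. Coordinates are from GENCODE release 21 (GRCm38). Figures were drawn with matplotlib 3.10.9.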

Additional observations from a re-analysis of the deposited data

Results flagged for a closer look

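In the 4 control libraries, replicate 4, the shallowest library, stood apart for 3 genes in DCT nuclei. Its Slc12a3 level was 14600 CPM, with 7313 to 8442 CPM in the other controls, its Klhl3 level 1064 CPM (529.6 to 597 CPM) and its Pth1r level 340.6 CPM (137 to 166.9 CPM). Control replicate 1 stood apart for Sall3, at 108.4 CPM against 85.1 to 88.1 CPM. Krt20 was counted, after thinning, in 2.50% of the 40 DCT nuclei of day 28 replicate 2 and in none of the other IRI libraries. A sample this far from the rest occurs by chance in about 1 of 20 groups, and 44 values were looked at, of which these 5 stood out.

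The change after IRI differed between DCT and TAL nuclei in an interaction test for the following named genes, given as DCT minus TAL on the log2 scale. More positive in DCT nuclei were Fgf13 (3.38), Prrg1 (3.34), Cdh6 (2.62), Pdgfd (2.36), Cwh43 (2.21), Scin (1.92), Kcnip4 (1.84), Nrxn3 (1.81) and Erbb4 (0.79). More negative were Dlc1 (-3.33), Trpm6 (-3.20), Tenm2 (-2.51), Sgcz (-1.99), Pip5k1b (-1.61), Erc2 (-0.91) and Plcb1 (-0.89). RNA of Trpm6 and Dlc1 in non-tubular nuclei is given with the comparison, and its part in these differences was not tested.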

How the results depend on the processing

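With the barcode set as a term, the genes called were 45 for day 7 against control, 77 for day 28 against control, 60 for day 28 against day 7 and 5 for DCT against TAL (935, 520, 109 and 21 as reported). Without DCT nuclei that held 3 or more UMIs of other classes' markers the counts were 422 and 133 against control and 168 for DCT against TAL. TAL nuclei were not filtered for the last of these counts. Within one barcode set, 93 genes differed between day 28 and control and 55 between day 28 and day 7. The fit of day 28 against control within one set held day 28 replicate 1 alone against the controls. Its count thus carries no spread between day 28 libraries and cannot be read as a difference between the groups. Day 28 against day 7 gave 169 genes with no filter and 46 with 8 or more Slc12a3 UMIs. DESeq2 called 6 genes for DCT against TAL, and 280 differed when all other nuclei took the place of TAL nuclei. Leaving out single libraries gave 434 to 1066, 261 to 745, 24 to 119 and 6 to 27 genes. The cause of these shifts was not tested.

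The difference in DCT share was -0.132 points after thinning. For day 7 it was -0.297 with 8 or more and -0.0842 with 1 or more Slc12a3 UMIs and -0.309 thinned. For day 28 it was -0.0139 thinned and -0.0413 to 1.30 with single libraries left out, and day 28 minus day 7 was -0.255 to 1.09. Without thinning, the shares of DCT nuclei with a UMI differed by 28.4 points for Havcr1, 21.3 for Vcam1 and 31.1 for Spp1 (exact permutation, adjusted p = 0.0423 each). Thinned to 500 UMIs, Slc8a1 differed by -0.368 and Trpm6 by -1.34 points. At 1000 UMIs, leaving out single libraries gave -3.53 to 7.14 points for Slc8a1, -1.59 to 5.71 for Trpm6 and, for Krt20, 0 without day 28 replicate 2.

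Of 167 calls of named genes, 163 were kept with RLE scaling and 132 with DESeq2, and none changed direction there. With the barcode set as a term 53 were kept, 107 fell short of the threshold and 7 turned. Without nuclei holding other RNA, 89 of 126 were kept, 32 fell short and 5 turned. Direction turned in the following cases. With the barcode term at day 7 these were Kcnq5 (-0.76), Cyp4a10 (0.55), Defb1 (0.63) and Pax2 (-0.64). Without nuclei holding other RNA these were Plcb1 (0.43) and Erc2 (0.44) at day 28. In DCT against TAL they were Plcb1 (1.28), Sgcz (4.98) and Erc2 (1.87) without such nuclei, Sgcz (0.085), Erc2 (0.39) and Tenm2 (0.39) with the barcode term, and Erbb4 (-2.65), Pdgfd (-2.61), Scin (-0.057), Plcb1 (0.76) and Erc2 (0.12) against all other nuclei.

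Replicate numbers did not pair the libraries: over 7 same-numbered pairs the correlation of deviations ran from -0.173 to 0.0289. With a replicate block the counts were 692, 407 and 81. Counts in DCT nuclei of control replicate 4, with 23491 UMIs, limit what can be seen for genes of low level, and changes of 2-fold were rarely recovered from simulated counts.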
